A study of Mus musculus with 10 samples.

Results

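The comparison described here is between mouse embryonic stem cells (mESCs) labelled as Daxx knockout and the same line carrying a DAXX transgene. It used 4 of the 10 libraries of the series, 2 of Daxx-/- cells and 2 of Daxx-/- cells given wild-type DAXX (labelled Daxx-/- + Daxx WT and called rescued here, Daxx-/-;WT in the figures), and it covered all 20325 genes of the deposited table, described by gene function. The other 6 libraries were of H3.3 knockout cells, alone or given wild-type H3.3 or an H3.3 mutant. The sample labels spell the mutant L126A-L130A, and the paper mostly L126A-I130A but in places as the labels do. These libraries entered the test through the shared estimate of spread, and the H3.3 rescues served as a comparison at the end.

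The Daxx-/- and rescued cells were of the 129/SvEv strain and the H3.3 knockout cells of 129 x C57BL/6J. All grew without feeders on gelatin, in medium holding leukemia inhibitory factor (LIF) with 3 µM CHIR99021 and 1 µM PD0325901. The transgene was FLAG-tagged murine DAXX driven by an EF1 promoter and delivered by lentivirus. Transduced cells were selected with puromycin and collected within weeks. Whether the Daxx-/- cells carried an empty vector is not stated in the sources used here. Libraries were made from polyA RNA with a NEBNext Ultra kit that is not stated to mark the strand.

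DAXX is a nuclear chaperone that binds the histone variant H3.3. Together with the remodeler ATRX it places H3.3 at telomeres, repeats and other heterochromatin, and it also binds transcription factors and chromatin modifiers that repress genes. Loss of DAXX in mESCs is tolerated, which makes a line without it available for putting the protein back.

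Sequencing depth was 19270931 and 17662370 expected counts in the Daxx-/- libraries and 21396585 and 17667514 in the rescued libraries. Genes above 0 numbered 15812, 16026, 15705 and 15637 in that order. Eef1a1, a translation elongation factor gene, was the most abundant gene of each library, with 1.48%, 2.04%, 1.57% and 1.66% of all counts. The Daxx-/- replicates differed from each other more than the replicates of any other group of the series. Their chi-square per gene was 73.9, against 25.5 for the rescued pair, and the correlation of log2 CPM (counts scaled to the library total) was 0.964 against 0.986. The p-values below measure only spread between libraries, estimated over all libraries of the series. The labels call them replicates and the paper calls them biological, but how separate the cultures were is not stated.

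In edgeR's quasi-likelihood test 143 of the 13201 genes tested (1.08%) differed at an adjusted p below 0.05 and at least 2-fold, and these are called DE below. Of them 38 (0.288%) were higher and 105 (0.795%) lower with the transgene, so 73.4% were lower (95% interval 65.6% to 80.0%, counting error only). All 143 DE genes had groups that did not overlap. Among all tested genes 3041 (23.0%) had both rescued values below both Daxx-/- values and 3238 (24.5%) had both above. Adjusted p of DE genes ran from 0.000409 to 0.0489, and only 10 genes were below 0.02. At an unadjusted p below 0.05 there were 1248 genes higher and 1633 lower. The median change of all tested genes was -0.02 on the log2 scale.

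The number of DE genes depended on single libraries. It was 1074 without Daxx-/- replicate 1 and 48 without Daxx-/- replicate 2. Without either rescued library only Serpina3m was left. The number also fell without an H3.3 knockout library, and fell further without either library of H3.3 knockout cells given wild-type H3.3. Those libraries enter the shared spread, and its part in these falls was not tested. Leaving out either mutant H3.3 library gave 157 or 166. Why the mutant H3.3 libraries, which enter the same spread, moved the number the other way was not tested. These limits hold for every call named below: Serpina3m alone kept its call in all of these fits, and no DE gene named by rule changed direction in any of them.

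**Figure D1:**
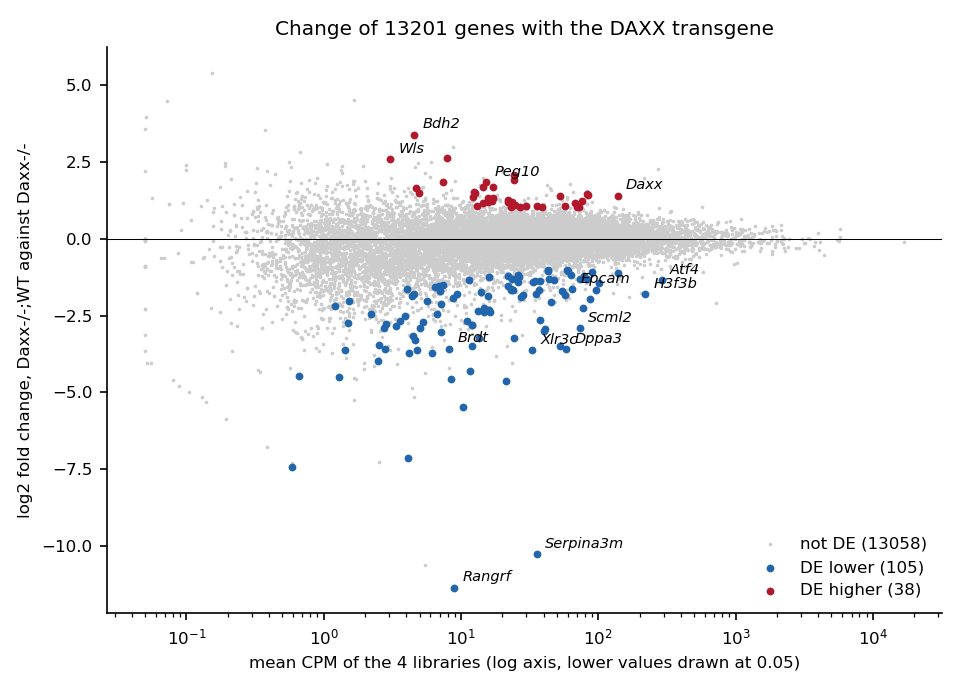
Change of each tested gene with the DAXX transgene against its mean abundance in the 4 libraries, with DE genes coloured. Means under 0.05 CPM are drawn at 0.05.

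Daxx itself was read first. Its RNA stood at 77.3 and 74.4 CPM in Daxx-/- and 195 and 208 CPM in rescued cells, without overlap, and rose by 1.41 on the log2 scale (standard error 0.18, adjusted p 0.0212). The H3.3 libraries, whose labels name no change of Daxx, stood at 63.9 and 63.9 CPM without a transgene, 61.7 and 61.5 CPM with wild-type H3.3 and 96.7 and 70.0 CPM with the mutant. The Daxx RNA total of the Daxx-/- libraries lay within that range and does not check the knockout label. Reads of a knockout allele and of the transgene cannot be told apart in gene totals. The Daxx gene lies at chr17:33909414-33915590.

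The falls were larger than the rises. DE genes that fell had a median change of -2.07, and 55 of them fell at least 4-fold and 27 at least 8-fold. DE genes that rose had a median of 1.34, with 4 at least 4-fold and 1 at least 8-fold higher. Genes named in the next paragraphs come from the 10 largest falls and rises, the DE genes with known roles in the gene lists, and the leading gene of each list. The DE genes of the lists were 24 of the 143, from 39 lists that held 741 tested genes.

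Serine protease inhibitors of the Serpina3 cluster were among the deepest losses. Serpina3m, which encodes a secreted inhibitor, lay at 87.2 and 55.8 CPM in Daxx-/- and 0.0935 and 0 CPM in rescued cells. It fell by 10.27 on the log2 scale (standard error 0.60, adjusted p 0.000409), and since its counts ended near 0 the safer statement is at least 461-fold lower. Its neighbour Serpina3k stood at 10.3 and 6.13 CPM in Daxx-/- and 0 and 0.113 CPM in rescued cells and was at least 52.9-fold lower (adjusted p 0.016). Serpina3c had 1.42 and 0.945 CPM in Daxx-/- and 0 and 0 CPM in rescued cells, at least 7.63-fold lower (adjusted p 0.0274). Serpina3n, the family member best known from inflammation, had 2.2 and 2.8 CPM in Daxx-/- and 0.187 and 0 CPM in rescued cells, lower by an amount its few counts do not fix (adjusted p 0.036). None of these genes had overlapping groups. Serpina3i did not share the pattern, with 2.04 and 2.53 CPM in Daxx-/- and 1.96 and 2.39 CPM in rescued cells. Of 11 listed family members 10 were in the table and 5 tested, and 4 of the 5 fell. The family median is not a measure of size here, since the rescued counts of all 4 were near 0. These genes are close paralogs on chr12, Serpina3m at chr12:104338486-104394257, and how reads were shared among them is uncertain.

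Other deep falls came from unrelated genes. Rangrf, a cofactor of the nuclear transport GTPase Ran, lay at 30.5 and 5.27 CPM in Daxx-/- and 0.0168 and 0.0119 CPM in rescued cells and was at least 116-fold lower (adjusted p 0.0394). Its Daxx-/- values were themselves far apart, and its exons overlap those of Slc25a35 on the other strand, which had 4.1 and 4.7 CPM in Daxx-/- and 3.18 and 4.53 CPM in rescued cells, so the assignment of its reads is uncertain. Ldoc1, a small gene derived from a retrotransposon, had 1.45 and 1.08 CPM in Daxx-/- and 0.0467 and 0.0566 CPM in rescued cells and was at least 8.16-fold lower (adjusted p 0.0212). Neither gene had overlapping groups.

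**Figure D2:**
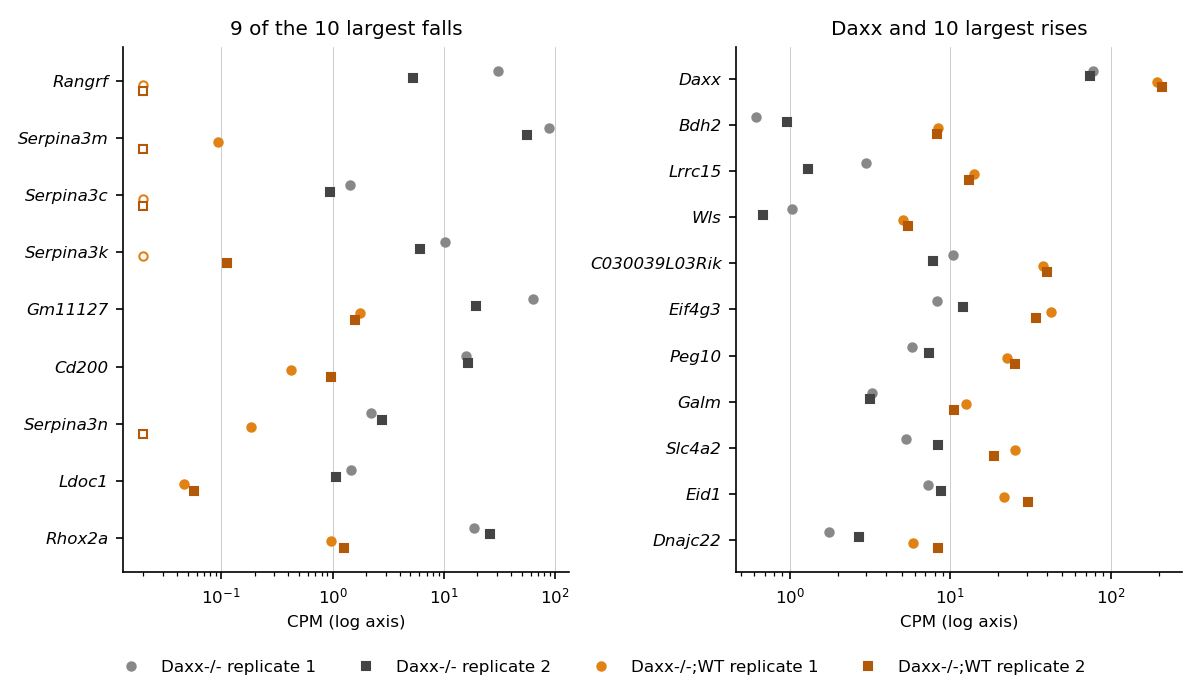
CPM of 9 of the 10 DE genes that fell most and of Daxx with the 10 that rose most, in each of the 4 libraries. Values under 0.02 are drawn as open markers at 0.02.

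The largest rise belonged to Bdh2, which encodes a short-chain dehydrogenase of the cytosol. It had 0.623 and 0.962 CPM in Daxx-/- and 8.37 and 8.26 CPM in rescued cells, a rise of 3.40 on the log2 scale (standard error 0.37, adjusted p 0.016). Lrrc15, a membrane protein with leucine-rich repeats, had 3.01 and 1.3 CPM in Daxx-/- and 14.1 and 13.1 CPM in rescued cells (log2 change 2.63, adjusted p 0.0266). Wls, which carries Wnt proteins to the cell surface, had 1.04 and 0.679 CPM in Daxx-/- and 5.09 and 5.43 CPM in rescued cells (log2 change 2.59, adjusted p 0.0266). In each of these genes the groups were well apart and the rescued replicates close together.

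The next rises were near 4-fold. C030039L03Rik had 10.5 and 7.87 CPM in Daxx-/- and 37.9 and 40.3 CPM in rescued cells, a log2 change of 2.08 (adjusted p 0.0203). Eif4g3, a scaffold of translation initiation, had 8.3 and 12 CPM in Daxx-/- and 42.5 and 34.3 CPM in rescued cells (log2 change 1.93, adjusted p 0.0365). Peg10, an imprinted gene of retrotransposon origin needed in the placenta, had 5.81 and 7.42 CPM in Daxx-/- and 22.6 and 25.2 CPM in rescued cells (log2 change 1.86, adjusted p 0.042). Galm, which interconverts galactose forms, had 3.27 and 3.17 CPM in Daxx-/- and 12.5 and 10.6 CPM in rescued cells (log2 change 1.85, adjusted p 0.0243). These genes did not overlap between the groups.

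Slc4a2, a chloride and bicarbonate exchanger, had 5.29 and 8.44 CPM in Daxx-/- and 25.3 and 18.7 CPM in rescued cells (log2 change 1.70, adjusted p 0.0274). Its exons overlap those of Fastk, which had 58.8 and 62.7 CPM in Daxx-/- and 90.8 and 90.2 CPM in rescued cells. Eid1, an inhibitor of the acetyltransferase p300, had 7.26 and 8.78 CPM in Daxx-/- and 21.6 and 30.4 CPM in rescued cells (log2 change 1.70, adjusted p 0.0231), and its exons overlap those of the much weaker Shc4. Dnajc22, a member of the DnaJ chaperone family, had 1.76 and 2.72 CPM in Daxx-/- and 5.84 and 8.43 CPM in rescued cells (log2 change 1.67, adjusted p 0.0481). The groups were apart for all of them. In total 22 of the DE genes have exons that overlap those of another protein-coding gene, Serpina3m and Serpina3k with each other among them, and their calls carry the same uncertainty.

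Among the lists, those of germline genes held the most falls. The lists and their members were chosen with earlier results of these data known. The counts are therefore a description and no independent support. The 6 lists joined, covering germ-cell regulators, meiosis, the piRNA pathway, oocyte genes and the Rhox and Xlr clusters, held 115 genes in the table and 88 tested. Of these 9 were DE (10.2%), all lower, and none rose. The change was negative for 76 of the 88, with both rescued values below both Daxx-/- values in 50 (56.8%) and above in 3. The median was -1.18. These values include Rhox4e, which passed the filter only through the Daxx-/- libraries and so could enter only as a fall. At an unadjusted p below 0.05 there were 42 lower and 2 higher, and DESeq2 called 30 lower and limma 29. The DE count was 25 without Daxx-/- replicate 1, 2 without Daxx-/- replicate 2, 4 without either H3.3 knockout library, and 0 without either rescued library or either library of H3.3 knockout cells given wild-type H3.3. The median stayed negative throughout, from -1.54 to -0.52 with 1 of the 4 libraries left out. In bulk samples fewer cells of a type and less RNA per cell cannot be told apart.

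Meiotic and male germ-cell genes were among them. Brdt, the testis-specific bromodomain gene, stood at 12.1 and 18.2 CPM in Daxx-/- and 0.795 and 1.75 CPM in rescued cells, and fell by 3.58 on the log2 scale (standard error 0.53). Scml2, a germline relative of Polycomb proteins on the X chromosome, stood at 107 and 152 CPM in Daxx-/- and 12.9 and 21.3 CPM in rescued cells and fell by 2.92 (adjusted p 0.0313). Smc1b, the cohesin subunit of meiosis, stood at 50.6 and 91.9 CPM in Daxx-/- and 5.79 and 12.1 CPM in rescued cells and fell by 2.99 (adjusted p 0.0342). Stk31, a Tudor-domain kinase of germ cells, stood at 60.8 and 55.9 CPM in Daxx-/- and 23.7 and 32.5 CPM in rescued cells and fell by 1.06 (adjusted p 0.0297). In all 4 genes the rescued values were below both Daxx-/- values. The germ-cell regulator list had 2 of 26 tested genes DE and a median of -1.02, the meiosis list 1 of 16 with -0.81, and the piRNA list 1 of 18 with -0.79. The piRNA median ranged from -1.06 to 0.06 when 1 of the 4 libraries was left out, so its sign hung on a single library.

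Dppa3 and Nlrp4c, of early embryos and oocytes, fell as well. Dppa3, a maternal factor that guards DNA methylation, stood at 57.2 and 159 CPM in Daxx-/- and 6.4 and 11.3 CPM in rescued cells and fell by 3.60 on the log2 scale (adjusted p 0.0244). Its Daxx-/- replicates differed widely but did not overlap the rescued values. Nlrp4c, an oocyte gene of the NLR family, stood at 28.8 and 20.1 CPM in Daxx-/- and 3.6 and 6.85 CPM in rescued cells and fell by 2.25 (adjusted p 0.0292). Of the oocyte list 9 of 25 genes in the table were tested, 1 was DE, and the median was -1.29. In the list for the 2-cell stage 14 genes were tested, 0 were DE by edgeR, 0 had an unadjusted p below 0.05, and 0 were called by DESeq2 or limma, with a median of 0.24 (0.16 with genes near 0 at their bound). Of its leading genes Dub1, a deubiquitinase, stood at 6.77 and 6.46 CPM in Daxx-/- and 4.42 and 2.77 CPM in rescued cells (log2 change -0.86, adjusted p 0.277). The other, Tdpoz3, stood at the floor of the data, at 0 and 0 CPM in Daxx-/- and 0.234 and 0.0566 CPM in rescued cells (adjusted p 0.28). It passed the filter only through the H3.3 libraries, so it gives no direction here.

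Genes of multicopy clusters on the X chromosome were among the falls. Rhox2a, a homeobox gene of the Rhox cluster, stood at 18.5 and 26 CPM in Daxx-/- and 0.97 and 1.26 CPM in rescued cells and fell by 4.31 on the log2 scale (adjusted p 0.0457). Rhox4e stood at 6.09 and 9.5 CPM in Daxx-/- and 0.327 and 0.851 CPM in rescued cells and fell by 3.73 (adjusted p 0.0423). Of the 10 tested genes of the Rhox list 2 were DE, 7 had groups apart with the rescued values below, none had them above, and the median was -3.31. Rhox4e had at most 0.222 CPM in the H3.3 libraries and passed the filter only through the Daxx-/- libraries. Such a gene could enter only as a fall, and how many other list members did so was not counted. Xlr3c, of the X-linked lymphocyte-regulated family, stood at 49.3 and 72.4 CPM in Daxx-/- and 2.3 and 7.69 CPM in rescued cells and fell by 3.62 (adjusted p 0.0437). Xlr3b stood at 58.7 and 71.4 CPM in Daxx-/- and 6.93 and 14 CPM in rescued cells and fell by 2.64 (adjusted p 0.0489). All 10 Xlr genes tested lay below without overlap, 2 of them DE, with a median of -2.97. The genes within each cluster are near copies, and which copy was read is uncertain.

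Several germline-related DE genes were found only by reading the DE genes, after their values were seen. Pramel3, of an oocyte and testis family, changed by -2.67 on the log2 scale (adjusted p 0.0274), and Nxf3, an X-linked RNA export factor of testis, by -2.37 (adjusted p 0.0423). Dmrtc1c, an X-linked relative of sex-determination genes, had 15.8 and 26.5 CPM in Daxx-/- and 2.66 and 3.31 CPM in rescued cells and changed by -2.82. Its copy Dmrtc1c2 had the same counts, so the pair is 1 observation. Rhox2c, of the Rhox cluster but not in the list, had 2.74 and 6.62 CPM in Daxx-/- and 0.177 and 0.376 CPM in rescued cells and changed by -3.98 (adjusted p 0.0484). It reached 1 CPM only in the Daxx-/- libraries, so it too could enter only as a fall. In the other direction 2410004A20Rik, annotated as the oocyte gene Khdc3, rose by 1.06 (adjusted p 0.0481).

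**Figure D3:**
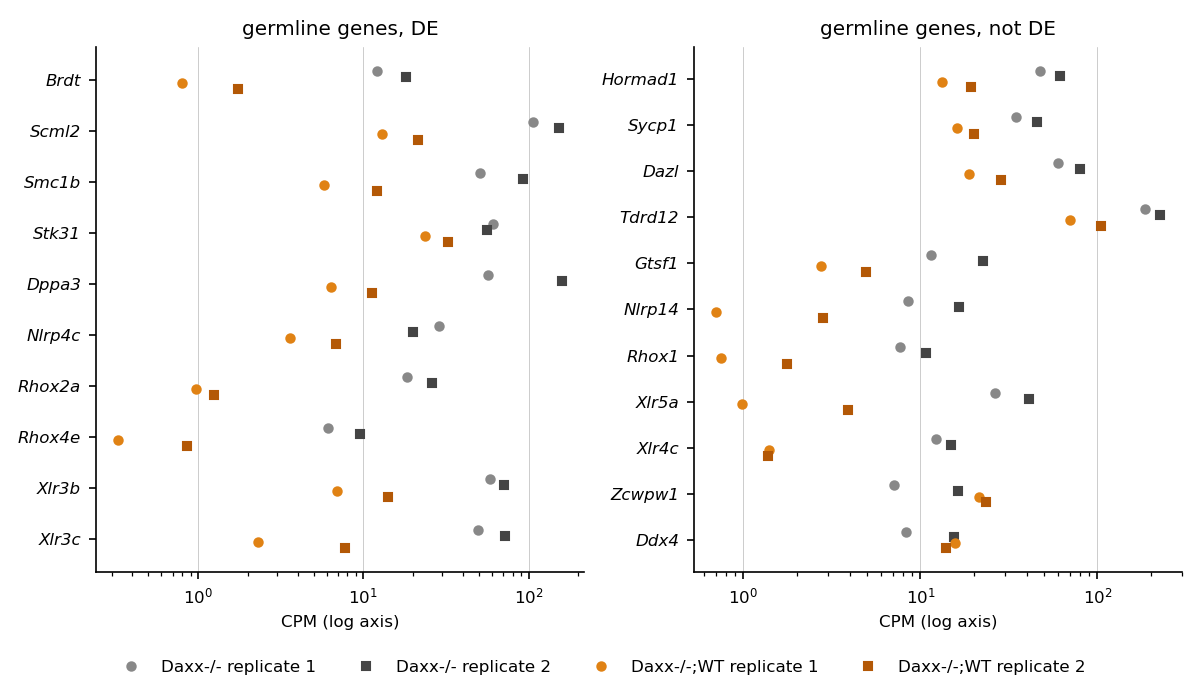
CPM of germline genes in each of the 4 libraries, with DE genes on the left and genes of the same lists that were not DE on the right. The genes drawn were chosen after their values were seen.

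Promoters of the germline genes were read for the E-box CACGTG, a site of the repressor complex that holds germline genes silent in mESCs. A promoter here is 300 bases around the first RefSeq start listed for the symbol. The motif reads the same on both strands. It was present in 21 of the 79 germline genes with a promoter (26.6%), in 10.4% of the promoters of all tested genes and in 7.24% of all 27025 promoters. The E2F6-type motif TCCCGC was in 35.4%, 36.2% and 20% of the same sets on either strand, GCGGGA on the other. Germline promoters held a median of 15 CpG sites against 21 for tested genes. A match is a description and binding was not measured. The motif CACGTG was in 10 of the 81 promoters of DE genes that fell (12.3%), near the share of all tested genes. A promoter was listed for 89.8% of the germline genes, 77.1% of the DE genes that fell and 79.9% of all tested genes, and the missing ones limit each comparison.

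Of the 9 DE genes of the germline lists 3 held CACGTG, Smc1b held TCCCGC, and the other 5, Scml2, Nlrp4c, Rhox2a, Xlr3b and Xlr3c, held neither. The promoters of the 4 with a motif are shown 5′ to 3′ in the direction of the gene, with the motif in capitals, from RefSeq on GRCm38.p6. Brdt lies at chr5:107330944-107331243 on the plus strand, Stk31 at chr6:49395289-49395588 plus and Rhox4e at chrX:37557162-37557461 plus, each with CACGTG. Smc1b lies at chr15:85131908-85132207 on the minus strand, with TCCCGC. Stk31 has 2 listed starts and the first was used.

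Brdt: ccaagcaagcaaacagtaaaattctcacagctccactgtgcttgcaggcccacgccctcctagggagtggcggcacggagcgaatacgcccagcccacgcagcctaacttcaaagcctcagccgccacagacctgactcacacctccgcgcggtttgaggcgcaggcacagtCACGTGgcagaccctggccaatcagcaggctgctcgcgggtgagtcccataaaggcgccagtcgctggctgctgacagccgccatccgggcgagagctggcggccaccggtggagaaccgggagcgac
Stk31: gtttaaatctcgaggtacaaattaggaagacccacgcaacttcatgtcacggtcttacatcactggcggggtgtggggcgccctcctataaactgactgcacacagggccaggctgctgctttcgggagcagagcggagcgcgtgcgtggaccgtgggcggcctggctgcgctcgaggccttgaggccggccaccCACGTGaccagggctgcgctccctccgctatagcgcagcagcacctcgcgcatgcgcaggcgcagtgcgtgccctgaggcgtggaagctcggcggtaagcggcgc
Rhox4e: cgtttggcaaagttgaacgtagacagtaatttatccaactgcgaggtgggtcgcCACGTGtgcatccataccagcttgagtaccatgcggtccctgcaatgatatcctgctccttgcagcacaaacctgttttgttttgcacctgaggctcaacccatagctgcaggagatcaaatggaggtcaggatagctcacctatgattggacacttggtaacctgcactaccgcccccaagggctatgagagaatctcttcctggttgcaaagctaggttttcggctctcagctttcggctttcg
Smc1b: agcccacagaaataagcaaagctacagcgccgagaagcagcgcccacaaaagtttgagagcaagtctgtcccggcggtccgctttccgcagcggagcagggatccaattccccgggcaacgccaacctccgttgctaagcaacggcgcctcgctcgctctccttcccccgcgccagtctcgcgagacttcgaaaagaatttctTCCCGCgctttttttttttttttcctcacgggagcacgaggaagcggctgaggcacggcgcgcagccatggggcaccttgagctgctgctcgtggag

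The histone list held 2 DE genes, both lower. H3f3b, a gene for H3.3 itself, stood at 293 and 388 CPM in Daxx-/- and 109.5 and 85.1 CPM in rescued cells, without overlap, and fell by 1.79 on the log2 scale (standard error 0.26, adjusted p 0.0244). H3f3a, which encodes the same protein, stood at 460.0 and 389.5 CPM in Daxx-/- and 458 and 498 CPM in rescued cells and was not DE (log2 change 0.17, adjusted p 0.78). Hist1h3a, a replication-dependent H3 gene, stood at 1.99 and 2.05 CPM in Daxx-/- and 0.551 and 0.282 CPM in rescued cells and fell by 2.19 (adjusted p 0.0272). Of 30 histone genes tested 18 lay below without overlap against 2 above, with a median of -1.02. Replication-dependent H3 genes had a median of -2.02 over 7 tested, other core and linker histones -1.32 over 13, and replacement variants -0.06 over 8. Messages of the replication-dependent genes mostly lack a polyA tail, so polyA libraries hold only part of them, and the genes are paralogs.

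The lists for partners of DAXX held no DE gene. Of 11 H3.3 chaperone genes none was DE by edgeR, at an unadjusted p below 0.05, by DESeq2 or by limma, with Atrx at a log2 change of -0.28 and Hira at 0.43. The leading members were Asf1b (0.30, adjusted p 0.412) and Chaf1a (0.25, adjusted p 0.354). The PML and SUMO list, where DAXX resides in nuclear bodies, had 25 genes tested, 0 DE, 2 lower at an unadjusted p below 0.05, 0 by DESeq2 or limma, and a median of -0.07. Map3k5, a kinase of the DAXX death pathway, was at -0.90 (adjusted p 0.0914) and Hipk2, a kinase that binds DAXX, at -0.66 (adjusted p 0.185), and neither was DE.

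The lists for repressive chromatin held no DE gene either. The H3K9 methylation list had 22 genes tested and 0 DE, with 1 higher and 1 lower at an unadjusted p below 0.05, 0 by DESeq2 or limma, and a median of 0.09. Its leading genes were Atf7ip (-0.58, adjusted p 0.0755) and its partner methyltransferase Setdb1 (0.51, adjusted p 0.161). The Polycomb list had 29 tested, 0 DE, 2 higher and 3 lower unadjusted, 0 by the other tools, and a median of 0.03, led by Suz12 (-0.67, adjusted p 0.0544) and Cbx8 (-1.07, adjusted p 0.162). DNA methylation genes numbered 18 tested with 0 DE, 3 higher and 2 lower unadjusted, 1 each way by DESeq2, 0 by limma, and a median of 0.22. There Dnmt3l, the cofactor of the de novo methyltransferases, stood at 40.0 and 43.6 CPM in Daxx-/- and 157 and 87.9 CPM in rescued cells, apart but not DE (log2 change 1.57, adjusted p 0.123), and the oxidase gene Tet2 was at 0.81 (adjusted p 0.148).

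Telomere genes, tested because DAXX acts at telomeres, numbered 12 with 0 DE, 2 higher and 0 lower at an unadjusted p below 0.05, 0 by DESeq2 or limma, and a median of 0.21. Obfc1, of the complex that ends telomere extension, was at 0.64 (adjusted p 0.0755) and the helicase gene Rtel1 at 0.85 (adjusted p 0.157). Among 34 DNA replication and cell-cycle genes Rdm1, a relative of RAD52, was the only DE gene. It stood at 77.2 and 84.4 CPM in Daxx-/- and 31.5 and 47.6 CPM in rescued cells and fell by 1.04 (adjusted p 0.0286), while the list median was 0.05. Outside the list and chosen after its value was seen, Pttg1, which encodes securin, the guard of sister chromatids, stood at 121 and 154 CPM in Daxx-/- and 33.7 and 37.5 CPM in rescued cells without overlap and fell by 1.95 (adjusted p 0.0184). Mus81, a nuclease for branched DNA, chosen the same way, rose by 1.49 (adjusted p 0.024).

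The ATF4 amino-acid and stress list held 2 DE genes, both lower. Atf4, its transcription factor, stood at 412 and 416 CPM in Daxx-/- and 129.6 and 199 CPM in rescued cells, without overlap, and fell by 1.34 on the log2 scale (standard error 0.20, adjusted p 0.0266). Herpud1, which helps clear misfolded proteins from the endoplasmic reticulum, stood at 26 and 35 CPM in Daxx-/- and 12.4 and 14 CPM in rescued cells and fell by 1.20 (adjusted p 0.0389). Of 26 ATF4 pathway genes tested these 2 were DE, 21 had a negative change, 15 lay below without overlap and none above, and the median was -0.52. Ddit3 differed between the knockout replicates instead, with 9.86 and 105 CPM in Daxx-/- and 19.4 and 24.4 CPM in rescued cells. Chosen after their values were seen, Atf3, a stress-induced partner of ATF4, stood at 10.7 and 11.8 CPM in Daxx-/- and 1.73 and 2.43 CPM in rescued cells and fell by 2.44 (adjusted p 0.0238), and Slc1a4, a transporter of neutral amino acids, changed by -2.24 (adjusted p 0.0481).

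The p53 list held no DE gene. Of 22 tested 0 were DE by edgeR, 9 were lower and 0 higher at an unadjusted p below 0.05, DESeq2 called 3 lower and limma 1, and 9 lay below without overlap with none above. The median was -0.53. Cdkn1a, the cell-cycle inhibitor p21, stood at 232 and 357 CPM in Daxx-/- and 96 and 152 CPM in rescued cells (log2 change -1.24, adjusted p 0.0527), apart but with an adjusted p above 0.05. Sesn1, a stress sensor, stood at 34.4 and 36.9 CPM in Daxx-/- and 16.9 and 21.2 CPM in rescued cells and had an adjusted p of 0.0484 but less than a 2-fold change (-0.91).

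The interferon and innate immunity list held 2 DE genes, Ube2l6 and Tlr2, both lower, and was otherwise mixed. Gm11127 and Cd200, from the 10 largest falls, are not in it and were given an immune role after their values were seen. Gm11127, a class I-like histocompatibility gene, stood at 62.5 and 19.3 CPM in Daxx-/- and 1.77 and 1.59 CPM in rescued cells and fell by 4.62 (adjusted p 0.0212), though it overlaps Gm6034. Cd200, whose product restrains myeloid cells, stood at 15.8 and 16.5 CPM in Daxx-/- and 0.421 and 0.962 CPM in rescued cells and fell by 4.56 (adjusted p 0.0214). Ube2l6, which attaches ISG15 to proteins, stood at 51.2 and 35.1 CPM in Daxx-/- and 13.8 and 9.38 CPM in rescued cells and fell by 1.90 (adjusted p 0.027). Tlr2, a receptor for bacterial lipoproteins, stood at 12.7 and 8.84 CPM in Daxx-/- and 3.46 and 3.23 CPM in rescued cells and fell by 1.69 (adjusted p 0.0243). All 4 had groups apart. The interferon and innate immunity list had 33 genes tested with 2 DE, 6 below and 8 above without overlap, and a median of -0.10. DESeq2 called 2 of its genes higher and 3 lower, and limma 1 higher and 2 lower. Read from the DE genes afterwards, H2-Eb1, a class II chain, changed by -3.24 (adjusted p 0.0274) and Parp9, whose exons overlap Dtx3l, by -1.80 (adjusted p 0.0266).

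The Wnt list held 1 DE gene, which was lower. Apcdd1, a membrane inhibitor of Wnt, stood at 21.3 and 22.2 CPM in Daxx-/- and 6.59 and 6.34 CPM in rescued cells, without overlap, and fell by 1.74 (adjusted p 0.0266), the only DE gene of 18 tested in the Wnt list, whose median was -0.30. The Wnt carrier Wls, which is not in the list, rose as given above. Chosen after their values were seen, the secreted Wnt antagonist Sfrp2 stood at 10.6 and 17.3 CPM in Daxx-/- and 3.6 and 3.62 CPM in rescued cells and fell by 1.93 (adjusted p 0.0266), and the Wnt regulator Tpbg changed by -1.27 (adjusted p 0.0481). The culture medium held a GSK3 inhibitor, which stimulates this pathway, in all libraries. Dusp9, a phosphatase of ERK chosen the same way, changed by -1.30 (adjusted p 0.0292).

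The ERK and TGF-beta lists held no DE gene. ERK pathway genes numbered 19 tested, 3 higher and 0 lower at an unadjusted p below 0.05, 0 by DESeq2 or limma, and a median of 0.11. Spry2, a feedback inhibitor, was at 0.46 (adjusted p 0.169) and Fgfr2 at 1.63 (adjusted p 0.186). TGF-beta and BMP genes numbered 25, with 0 higher and 3 lower unadjusted, 0 by the other tools, and a median of 0.03. The receptor gene Bmpr2 was at -0.91 (adjusted p 0.116) and the target Id2 at -1.59 (adjusted p 0.183).

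The adhesion list held 1 DE gene. Epcam, an epithelial adhesion molecule of mESCs, stood at 74.1 and 121 CPM in Daxx-/- and 24.7 and 37.5 CPM in rescued cells, without overlap, and fell by 1.64 (adjusted p 0.0231). The list had 28 genes tested, of which 11 lay below without overlap and 1 above, with a median of -0.40. The exception was Vim, the mesenchymal filament gene, at 137 and 47.7 CPM in Daxx-/- and 583 and 317 CPM in rescued cells, above but not DE (log2 change 2.28, adjusted p 0.087). The extracellular matrix list had 24 tested and 0 DE, 1 higher and 6 lower at an unadjusted p below 0.05, 3 lower by DESeq2, 1 by limma, and a median of -0.31. Its leading genes were the collagen gene Col1a1 at 3.58 and 4.53 CPM in Daxx-/- and 0.467 and 0.962 CPM in rescued cells (log2 change -2.51, adjusted p 0.0588) and Smoc1 (-1.19, adjusted p 0.0589). Chosen after their values were seen, Itgb5, an integrin chain, stood at 89.6 and 77.4 CPM in Daxx-/- and 22.6 and 29.6 CPM in rescued cells and fell by 1.69 (adjusted p 0.0191), and the laminin gene Lama3 changed by -2.36 (adjusted p 0.041).

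Transporters and metabolic enzymes were also found among the DE genes, in both directions. They were sorted by role after their values were seen. Their share among all tested genes was not counted, so no count of them is given. Abca1, which exports cholesterol, stood at 77.3 and 69.4 CPM in Daxx-/- and 13.9 and 21.3 CPM in rescued cells, without overlap, and fell by 2.07 (adjusted p 0.0214). Echdc2, a mitochondrial enoyl-CoA hydratase relative, stood at 154 and 140.5 CPM in Daxx-/- and 43.6 and 49.1 CPM in rescued cells, also apart, and fell by 1.67 with the small standard error of 0.16 (adjusted p 0.00917). Among enzymes of amino-acid breakdown, chosen the same way, Abat changed by -2.69 (adjusted p 0.0394), Aass by -2.02 (adjusted p 0.0403) and Hal by -1.86 (adjusted p 0.0212). Mgll, a lipase of monoglycerides, changed by -2.90 (adjusted p 0.0481). Among the 56 DE genes left without a role, Nsg2, a neuronal endosome protein, stood at 10.1 and 13 CPM in Daxx-/- and 0.981 and 0.736 CPM in rescued cells and fell by 3.71 (adjusted p 0.00501).

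Core metabolism lists held 0 DE genes by edgeR. Glycolysis, with 28 tested, had 1 higher and 5 lower at an unadjusted p below 0.05, 1 lower each by DESeq2 and limma, and a median of -0.35, led by Pfkp (-0.99, adjusted p 0.0592) and Pdk1 (0.75, adjusted p 0.0821). Oxidative phosphorylation, with 30, had 1 higher and 2 lower, 0 by the other tools, and -0.08, led by Ndufa1 (-0.52, adjusted p 0.0779) and Atp5b (-0.28, adjusted p 0.198). Cholesterol synthesis, with 27, had 1 higher and 2 lower, 0 by the other tools, and 0.03, led by Acat2 (0.79, adjusted p 0.082) and Fdft1 (-0.65, adjusted p 0.0978). Ribosomal proteins, with 45, had 2 higher and 1 lower, 0 by the other tools, and -0.06, led by Rpl6 (-0.30, adjusted p 0.156) and Rplp2 (0.34, adjusted p 0.179).

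The cells kept the profile of mESCs. Of 7 embryonic stem cell markers 6 were in the table and tested, Tfcp2l1 was not analysed here, none was DE, and they summed to 5568, 6098, 4859 and 5904 CPM in the 4 libraries, with Dppa5a the most abundant. Pou5f1 was at a log2 change of 0.15 (adjusted p 0.58), Sox2 at 0.23 (adjusted p 0.532) and Zfp42 at 0.15 (adjusted p 0.687), all small enough to lose their sign without Daxx-/- replicate 2. Nanog stood at 668 and 708 CPM in Daxx-/- and 487 and 606 CPM in rescued cells (log2 change -0.33, adjusted p 0.221) and Esrrb was at 0.22 (adjusted p 0.321). The naive list of 28 tested genes had a median of 0.19 and 1 DE gene, Dppa3. The formative list had 14 tested, 0 DE, 0 higher and 1 lower at an unadjusted p below 0.05, 0 by DESeq2 or limma, and a median of 0.28, led by Pou3f1 (-1.22, adjusted p 0.185) and Eomes (0.55, adjusted p 0.251).

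No marker of another cell type was DE, and most were low, with the neural gene Tubb3 the clearest exception. Of 7 fibroblast markers 2 were tested, of 5 for primitive endoderm 4, of 4 for trophoblast 0, and of 3 for neurons 3. Markers of fibroblasts summed to 25.9 and 41.8 CPM in Daxx-/- and 11.7 and 17.5 CPM in rescued cells, mostly Thy1, with Dcn at 0 and 0 CPM in Daxx-/- and 0 and 0.113 CPM in rescued cells. Primitive endoderm markers summed to 6.18, 19.14, 3.93 and 6.23 CPM, with Gata4 and Dab2 the most abundant, trophoblast markers to 0.415, 1.87, 0.795 and 0.453 CPM, mesoderm markers to 0.778, 0.906, 1.59 and 0.679 CPM, and blood markers to 1.04, 1.02, 0.795 and 0.679 CPM, mostly Gata1. Neural markers summed to 114, 43.7, 206 and 92.4 CPM, nearly all from Tubb3 at 111 and 39.7 CPM in Daxx-/- and 202 and 87.6 CPM in rescued cells, a tubulin also made outside neurons. No marker was at 0 in all 4 libraries. The fibroblast sum was lower in both rescued libraries, while the mesenchymal gene Vim above was higher, and whether a few other cells contributed was not tested. The primitive endoderm sum stood out in Daxx-/- replicate 2.

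Lists for these lineages held few DE genes. Peg10 was the DE gene of 11 tested trophoblast genes (median -0.24) and of 37 tested imprinted genes (median 0.10), where 6 lay below and 8 above without overlap. The primitive endoderm list had 10 tested, 0 DE, 0 higher and 2 lower at an unadjusted p below 0.05, 0 by DESeq2 or limma, and a median of -0.54, led by Sox17 (-1.93, adjusted p 0.141) and Gata6 (-2.57, adjusted p 0.169). Hox and other developmental transcription factors had 23 tested, 0 DE, 0 higher and 3 lower, 0 by the other tools, and -0.51, led by Tbx2 (-1.85, adjusted p 0.112). The neural list had 13 tested, 0 DE, 1 each way, 1 lower by DESeq2, 0 by limma, and 0.34, led by Ncam1 (0.77, adjusted p 0.0902) and Elavl3 (-2.32, adjusted p 0.0953). Mesoderm and blood had 10 tested, 0 DE, 1 each way, 0 by the other tools, and -0.19, led by Cd34 (1.40, adjusted p 0.173) and Des (-1.57, adjusted p 0.227). The fibroblast list had 6 tested, 0 DE, 0 higher and 3 lower, 1 lower each by DESeq2 and limma, and -1.08, led by Col1a1, given above, and Fbln1 (-1.05, adjusted p 0.152).

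Many list medians did not keep their sign when 1 of the 4 libraries was left out. This held for the naive, formative, primitive endoderm, piRNA, 2-cell, imprinted, H3.3 chaperone, Polycomb, PML and SUMO, interferon, Wnt, ERK, TGF-beta, oxidative phosphorylation, ribosome, cholesterol, replication, trophoblast and mesoderm lists. The medians of the Rhox, Xlr, Serpina3, meiosis, germ-cell regulator, oocyte, histone, ATF4, p53, adhesion, matrix, glycolysis, Hox and fibroblast lists stayed negative.

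**Figure D4:**
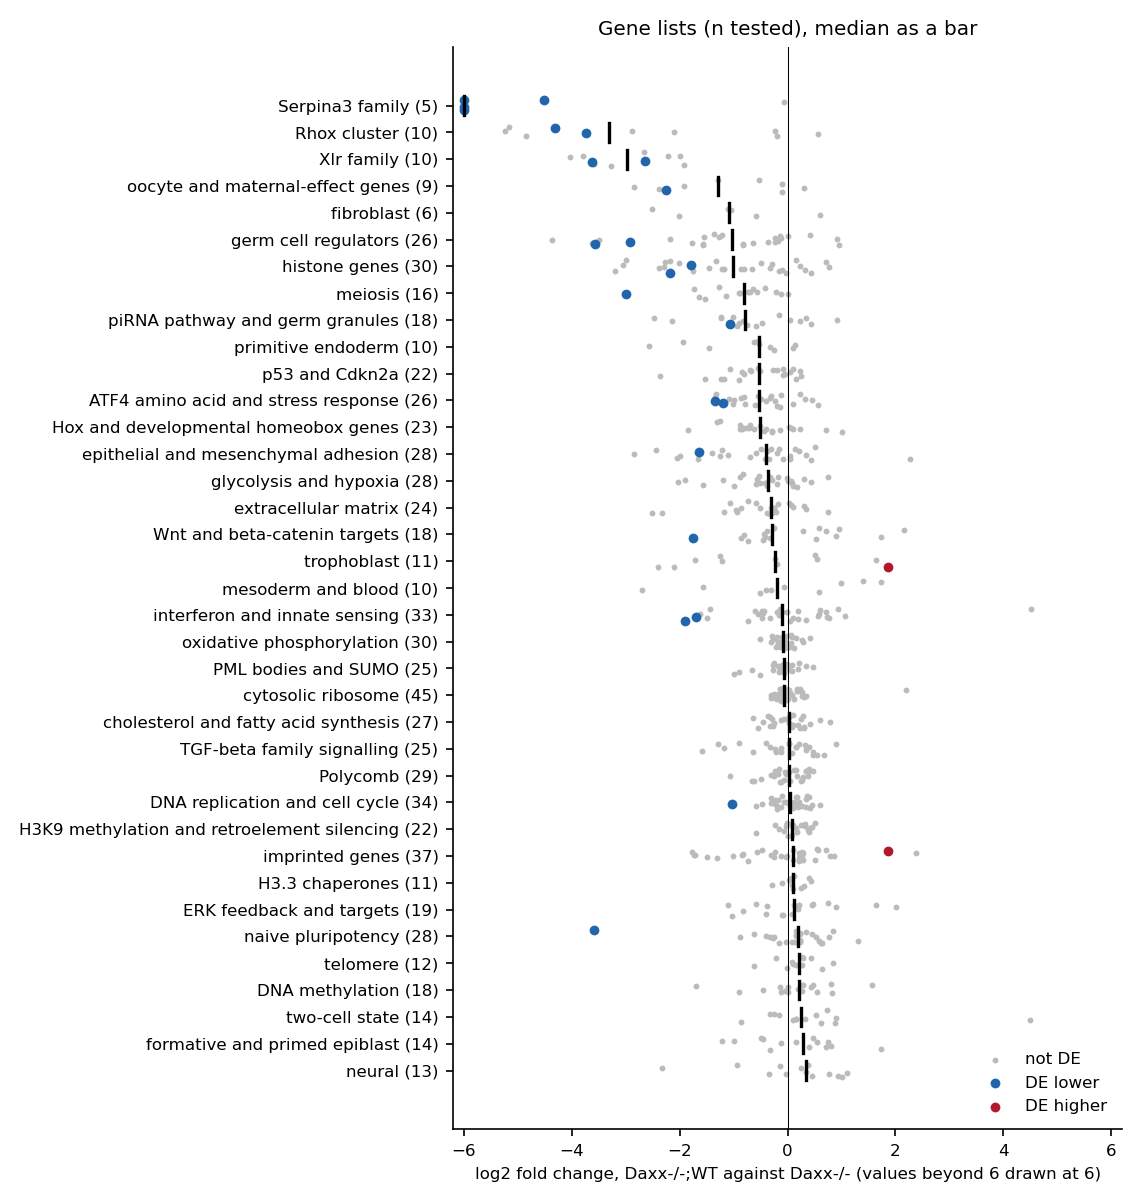
Log2 change of every tested gene in each list, with the list median as a bar and DE genes coloured. Values below -6 are drawn at -6.

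The X chromosome carried more falls than its share. Of 499 X-linked genes tested 21 were DE, all lower (4.21%), and they were 20% of the 105 DE genes that fell against 3.81% of the genes tested. The X median was only -0.11. At an unadjusted p below 0.05 there were 121 lower and 26 higher. Beyond the germline lists 16 of 473 X-linked genes were DE, with a median of -0.07 and 156 (33.0%) below without overlap. Those 16 still include Pramel3, Nxf3, Rhox2c and the Dmrtc1c pair, which are germline-related and of which the pair is 1 observation. The X count was 50 lower and 8 higher without Daxx-/- replicate 1. Genes lower numbered 4 without Daxx-/- replicate 2, 12 without either H3.3 knockout library, 1 without either library of H3.3 knockout cells given wild-type H3.3, and 0 without either rescued library. Rlim, the only gene of X dosage control analysed here, stood at 156 and 213 CPM in Daxx-/- and 160.0 and 161 CPM in rescued cells (adjusted p 0.55, 0 by the other tools). The 4 genes tested from the Y-linked list summed to no more than 0.140 CPM in each of these 4 libraries and passed the filter only through the H3.3 libraries, where Ddx3y stood at 59.7 CPM or more. That none of them was DE by any tool therefore tells nothing.

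Some autosomes also had a shifted median. Chromosome 19 stood at 0.26 with 5 DE genes higher and 0 lower, 109 higher and 15 lower at an unadjusted p below 0.05, 13 and 4 by DESeq2, and 5 and 0 by limma. Chromosomes 2 and 3 had medians of 0.21 and 0.18, and chromosomes 4 and 1 of -0.21 and -0.19. With the overall median removed, the shift of chromosome 19 was 0.22 to 0.25 in each of the 4 pairings of a rescued and a Daxx-/- library. Those of chromosomes 1, 2, 3 and 4 kept their sign. So did every other chromosome except 13, 15 and 18, and the pairings share libraries, so keeping a sign marks none of them out. Positions were available for 99.1% of the tested genes, and the cause was not tested.

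**Figure D5:**
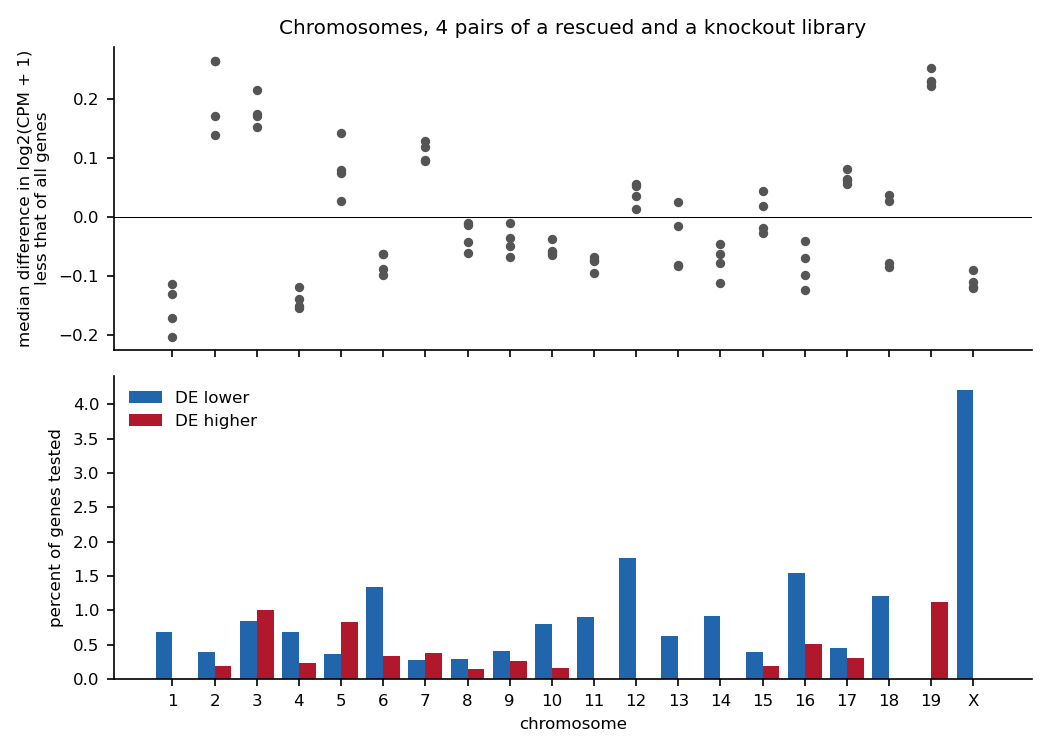
Median change of each chromosome in the 4 pairings of a rescued and a Daxx-/- library, and percent of its tested genes that were DE.

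The change with DAXX was set against the change with an H3.3 transgene in H3.3 knockout cells. The count of differing genes depended on the tool. It also depended on single libraries and on a block for replicate number, as given under How the results depend on the processing. The difference passed both thresholds for 6 genes (0.0455%) against the wild-type H3.3 rescue and for 3 (0.0227%) against the mutant, while 1839 and 1482 had an unadjusted p below 0.05, DESeq2 called 262 and 164, and limma 3 and 3. The DE genes that fell with DAXX had median changes of -0.73 and -0.78 in those rescues, and the DE genes that rose had 0.01 and 0.37. Serpina3m fell more with DAXX than with wild-type H3.3 (adjusted p 0.0245), by an amount that its 2 and 0 counts in rescued cells do not fix. Bdh2 rose with DAXX and stood at 5.79 and 6.39 CPM in H3.3 knockout and 4.28 and 2.95 CPM with wild-type H3.3, a difference of 4.11 (adjusted p 0.0417).

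Several of the differences were in replication-dependent H3 genes, which stood higher with an H3.3 transgene. For Hist1h3a the difference was -8.37 against wild-type H3.3 (adjusted p 0.000128) and -8.14 against the mutant (adjusted p 0.000164). It stood at 0.911 and 1.55 CPM in H3.3 knockout, 83.1 and 93.5 CPM with wild-type H3.3 and 73.8 and 73.7 CPM with the mutant. Hist1h3h, Hist1h3b, Cdkn2a and Echdc2 were chosen after their values were seen. Hist1h3h had 3.67 and 2.24 CPM in Daxx-/- and 1.03 and 1.58 CPM in rescued cells, and its differences were -4.90 (adjusted p 0.00586) and -4.87 (adjusted p 0.00617). Hist1h3b had 1.59 and 0.904 CPM in Daxx-/- and 0.594 and 0.77 CPM in rescued cells and a difference of -5.51 against wild-type H3.3 (adjusted p 0.0245). Neither was DE with DAXX, at adjusted p 0.0823 and 0.279. These H3 genes are close paralogs, and which of them was read is uncertain. Reads of an H3.3 transgene and of these genes were not told apart, so whether the genes themselves rose was not tested. Cdkn2a, the locus of a pair of cell-cycle inhibitors, had 43.6 and 59.8 CPM in Daxx-/- and 29.5 and 33.7 CPM in rescued cells, a DAXX change of -0.70 (adjusted p 0.102), and a difference of -2.33 (adjusted p 0.0485). Echdc2 fell with DAXX and had a change of 0.46 with mutant H3.3, a difference of -2.13 (adjusted p 0.0189). It fell with wild-type H3.3 too, by 1.02 (adjusted p 0.0476), and that difference was -0.65 (adjusted p 0.268). The cell lines differ in origin and in Y-linked RNA as well as in the gene removed, and the part of each was not tested.

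Limits are those of the design. Each group had 2 libraries of a single line, and most calls rested on spread shared with H3.3 libraries. Replicate 1 and replicate 2 of Daxx-/- differed strongly. Whether viral delivery, selection and time in culture differed between the groups is not stated in the sources used here. Expected counts of paralogs and of overlapping genes are uncertain, and strand was not known. The lists are hand-made and were chosen with earlier results of these data known, and a gene absent from them was not counted for its function. No protein, chromatin or repeat RNA was measured here. In bulk RNA a change in cell mixture and a change within cells are the same observation.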

How the data were processed

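The authors aligned reads to mm9 with Bowtie and estimated transcript expression with RSEM. Versions are not given in the sources used here. The deposited table of 10 mESC libraries is named for TPM but holds expected counts, which sum to the depth of each library. Values were rounded for the tests. CPM are scaled by all expected counts of a library, while fold changes use median-of-ratios factors (0.936 to 1.04).

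Genes reaching 1 CPM in 2 or more of the 10 libraries entered edgeR 4.0.16 (R 4.3.3), in a quasi-likelihood F test with 1 coefficient per group (common dispersion 0.0522, prior degrees of freedom 4.07, residual 5). DE means an adjusted p (Benjamini-Hochberg) below 0.05 and a change of 2-fold or more. Standard errors are the log2 change divided by the square root of F. Bounds for genes near 0 set 3 counts per library as the floor. Differences between rescues came from the same fit. The fit was tested on simulated data with known changes: it called 17 of 64 genes changed 2-fold, 61 of 69 changed 4-fold and 64 of 67 changed 8-fold, none with the wrong sign, and 7 unchanged genes, among 12924 tested. The simulation gave every gene and group the same common dispersion. It lacked the wider spread of the real Daxx-/- replicates, so its rates cannot be read as those of these data.

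Named genes were, by rule, Daxx, the 10 largest DE changes each way, DE genes of the lists, markers and the leading genes of each list. A pair of genes that the rule names is not reported here. The 39 lists of gene functions and the members were chosen with earlier results of these data known. DE genes outside the lists were sorted by role after their values were seen. Gene positions came from GENCODE M21 and promoters from RefSeq, joined by symbol.

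Alternatives were TMM factors, library size alone, other filters, the 4 Daxx libraries alone, no abundance trend, robust estimation, replicate number as a block, DESeq2 1.42.0, limma 3.58.1 with 2 offsets, other thresholds, and each library left out. Python 3.11.15, numpy 2.4.6, pandas 2.3.3, scipy 1.17.1 and matplotlib 3.10.9 made tables and figures.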

Additional observations from a re-analysis of the deposited data

Results flagged for a closer look

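Genes whose change with DAXX differed from the change with an H3.3 transgene, past both thresholds of edgeR's quasi-likelihood test, are given for a closer look. Against wild-type H3.3 the differences on the log2 scale were -6.99 for Serpina3m, 4.11 for Bdh2, -8.37 for Hist1h3a, -2.33 for Cdkn2a, -5.51 for Hist1h3b and -4.90 for Hist1h3h. Against the mutant H3.3 they were -8.14 for Hist1h3a, -4.87 for Hist1h3h and -2.13 for Echdc2. The value of Serpina3m rests on 2 and 0 counts in rescued cells, so its size is not fixed. For the H3 genes, reads of an H3.3 transgene were not told apart from those of the genes themselves. How many genes passed also depended strongly on single libraries and on the replicate block, as given below.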

How the results depend on the processing

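The 143 DE genes became 145 with TMM factors, 123 with library size alone, 146 with a mean of 5 CPM, 148 with robust estimation and 186 with no fold minimum. They became 233 with no filter, 94 with no abundance trend, 531 with DESeq2, 240 and 189 with limma at offsets of 1 and 0.1, 3 at an adjusted p below 0.01, 3 in a test against a 2-fold change, and 1 with the 4 Daxx libraries alone. In the last 3 fits 100% were lower. Daxx was not called there, at 1.41, 1.41 (adjusted p 0.651) and 1.42 (adjusted p 0.125). Genes that differed from the wild-type H3.3 rescue numbered 262 with DESeq2, 3 with limma at an offset of 1 and 2 at an adjusted p below 0.01. From the mutant rescue they numbered 8 with no filter, 5 with no abundance trend and 164 with DESeq2.

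With the replicate block there were 621 DE genes and 144 and 7 differences. Replicate numbers deviated together (r = 0.558 over 13201 genes), and the cause was not tested.

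Leaving out 1 library gave 1 to 1074 DE genes, 58.7% to 100% of them lower, 1.31 to 1.5 for Daxx, and 1 to 187 and 1 to 34 differences. Daxx lost its call without Daxx-/- replicate 2 (adjusted p 0.0549), either rescued library (0.189, 0.0789) or either library of H3.3 knockout with wild-type H3.3 (0.0585, 0.057). Ranges crossed 0 only for genes that were not DE: Pou5f1 -0.0191 to 0.336, Sox2 -0.0460 to 0.553, Zfp42 -0.140 to 0.499, Gata4 -1.06 to 0.0114 (lowest or highest without Daxx-/- replicate 2), Uty -3.12 to 0.0176 and Sox1 -0.227 to 0.613 (a rescued library). Medians of all lists kept their sign with TMM factors and library size.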
